A study of Homo sapiens with 12 samples.

Results

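The loci described here are the stretches of the genome at which an enriched histone H3 region was called in 3 or more of 6 ChIP-seq region lists. ChIP-seq sequences the DNA that comes down with an antibody, and a region is a stretch where the authors' caller found more ChIP tags than input tags. All regions on chromosomes 1 to 22 and X were pooled, and regions sharing at least 1 bp were merged into a locus. This gave 139997 loci, of which 1022 held regions from at least 3 lists, 0.73% of all. Regions came from exactly 3 lists at 949 loci, from 4 lists at 69 and from 5 lists at 4, and no locus held all 6. Loci of exactly 2 lists numbered 18884, and 120091 came from 1 list. The loci were chosen by the calls themselves, which rest on ChIP and input tags, so their number, their lists and the tags and folds of their regions are given as a description without a test.

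The lists came from 6 ChIP libraries of MCF10AER/vSrc cells, 1 for H3.1 (H3.1/H3.2 in the series design) and 1 for H3.3 at each of 3 times: control cells, and cells 4 h and 24 h after D-alanine. The labels name an input for each ChIP library, so 12 samples in all. The input depths recovered from the scaled tags were closest for H3.3 in control cells and H3.3 at 24 h, at 16.57 M tags each. The input of H3.1 at 4 h came next, at 16.63 M. Whether these were separate libraries was not tested. The same input under several lists would tie their folds together. MCF10A is an established line of non-tumorigenic human breast epithelium, and ER/vSrc stands for the v-Src oncoprotein joined to an oestrogen receptor domain, which all the samples carry; the labels give every sample the genotype WT. The D-alanine dose is labelled 10 nM, which is doubtful because D-alanine is usually given to cells at far higher doses, and the design names nuclear reactive oxygen species as its product. Expression was not measured, so the cell identity was not checked against markers. With 1 library per condition there is no replicate, and differences between lists have no replicate check.

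Histone H3.1 is placed into chromatin mainly behind the replication fork, by the chaperone CAF-1. Histone H3.3 is placed throughout the cell cycle, by the HIRA complex at genes and regulatory elements and by ATRX and DAXX at telomeres and other repeats. A locus called for both histones, or at several times, is a place where nucleosomes carrying these variants were recovered above input in more than 1 immunoprecipitation.

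The sequences below are reference promoters, from 250 bases before to 50 bases after a transcription start, for the genes whose promoter was met by a locus of 4 lists, WDR86 and COL6A2, and for the developmental regulators HOXA13 and TBX5. They are shown because they are the promoters that the loci with most lists reached, and the best known regulators among the others. Sequences and positions are those of RefSeq on GRCh38.p14, printed 5′ to 3′ on the strand of the gene, and capitals mark each CG. The WDR86 window is chr7:151409989-151410288 on the minus strand, the COL6A2 window chr21:46097862-46098161 on the plus strand, the TBX5 window chr12:114407963-114408262 on the minus strand and the HOXA13 window chr7:27200042-27200341 on the minus strand.
WDR86: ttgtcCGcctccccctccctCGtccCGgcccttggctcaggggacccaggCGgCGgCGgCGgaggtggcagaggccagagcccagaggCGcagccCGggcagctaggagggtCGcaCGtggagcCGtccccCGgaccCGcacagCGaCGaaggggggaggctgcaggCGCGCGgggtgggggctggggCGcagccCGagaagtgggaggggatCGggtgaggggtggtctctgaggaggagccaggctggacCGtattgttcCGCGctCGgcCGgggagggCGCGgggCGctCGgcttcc
COL6A2: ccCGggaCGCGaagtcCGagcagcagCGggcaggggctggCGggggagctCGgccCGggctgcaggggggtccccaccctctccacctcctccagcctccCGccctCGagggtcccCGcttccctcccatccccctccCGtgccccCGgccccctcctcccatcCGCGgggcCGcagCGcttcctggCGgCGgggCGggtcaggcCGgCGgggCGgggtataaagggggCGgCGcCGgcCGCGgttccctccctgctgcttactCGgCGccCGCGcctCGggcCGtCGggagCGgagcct
TBX5: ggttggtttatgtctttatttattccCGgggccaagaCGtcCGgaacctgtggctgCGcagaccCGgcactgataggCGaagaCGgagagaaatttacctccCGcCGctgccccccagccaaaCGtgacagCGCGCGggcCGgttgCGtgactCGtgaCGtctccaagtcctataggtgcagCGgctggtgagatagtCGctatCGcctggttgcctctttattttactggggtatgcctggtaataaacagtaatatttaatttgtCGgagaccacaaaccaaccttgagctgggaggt
HOXA13: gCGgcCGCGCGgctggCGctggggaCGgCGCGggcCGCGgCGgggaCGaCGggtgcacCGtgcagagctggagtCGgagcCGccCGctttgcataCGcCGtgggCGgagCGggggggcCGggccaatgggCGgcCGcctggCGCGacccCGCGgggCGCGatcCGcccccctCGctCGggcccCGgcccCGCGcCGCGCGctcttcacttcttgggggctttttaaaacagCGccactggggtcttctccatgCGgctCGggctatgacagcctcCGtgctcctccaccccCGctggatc
The HOXA13 window holds 44 CG dinucleotides, the COL6A2 window 36, the WDR86 window 31 and the TBX5 window 21. The COL6A2 window also carries the letters TATAAA shortly before its start. Each of these windows was touched by a region of 1 list only, from H3.1 4 h at WDR86 and COL6A2, H3.1 24 h at TBX5 and H3.3 control at HOXA13, and the other regions of the locus lay beside it.

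The RefSeq table of microRNAs gave 1558 hairpins on these chromosomes, and 3 of them were met by such a locus, all by the same one. That locus is chr14:105856652-105858211 (GRCh38.p14) and lies between the immunoglobulin heavy chain segments IGHM and IGHJ6. The mature microRNAs of these hairpins are printed with the seed, bases 2 to 8, in capitals.
hsa-miR-4539: gCUGAACUgggcugagcugggc
hsa-miR-4507: cUGGGUUGggcugggcuggg
hsa-miR-4538: gAGCUUGGaugagcugggcuga
The 3 seeds differ, and the mature sequence of hsa-miR-4538 lies just beyond the end of the locus. The hairpin of hsa-miR-4539 was met by the H3.3 control region alone. Those of hsa-miR-4507 and hsa-miR-4538 were met by the H3.1 24 h region alone. No base of this locus was in 3 lists. The H3.1 24 h region of this locus held 10.1 normalised tags (tags per 10000000 of the library) at a fold over input of 4.57. The H3.1 control region held 17.7 normalised tags at a fold of 9.32, and the H3.3 control region 17.9 at a fold of 5.92.

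The lists that enter the loci differ widely in length, while ChIP depth was similar at 16837079 to 19576955 tags per library. Regions on chromosomes 1 to 22 and X numbered 44966, 7922 and 13611 for H3.1 in the control, 4 h and 24 h lists, and 9839, 3614 and 81370 for H3.3. H3.1 control and H3.3 24 h are called the long lists below, and the other 4 the shorter lists. Of the loci with 3 or more lists, 814 held an H3.1 control region, 436 an H3.1 4 h region and 536 an H3.1 24 h region. These are 1.82%, 5.51% and 3.94% of all loci of those lists. H3.3 regions of the control list were at 440 of the loci, those of 4 h at 230 and those of 24 h at 687, which are 4.47%, 6.37% and 0.845% of the loci of those lists. The long lists therefore gave the most members and the smallest share of their own loci.

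The most frequent combination joined H3.1 control, H3.1 24 h and H3.3 24 h at 209 loci (20.5%). H3.1 control, H3.1 4 h and H3.3 24 h followed at 154 loci, and H3.1 control, H3.3 control and H3.3 24 h at 148. In all, 585 of the 949 loci with exactly 3 lists were made of both long lists and a shorter one. The pair of long lists also made up 14410 of the 18884 loci of exactly 2 lists (76.3%). Among combinations without either long list, H3.1 4 h, H3.1 24 h and H3.3 control led with 78 loci. Over all members, 634 loci (62.0%, exact 95% interval 59.0 to 65.0) held both long lists, 233 (22.8%) held 1 of them and 155 (15.2%, 13.0 to 17.5) came from the shorter lists alone. Intervals here are Clopper-Pearson and cover counting error only.

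**Figure D1:**
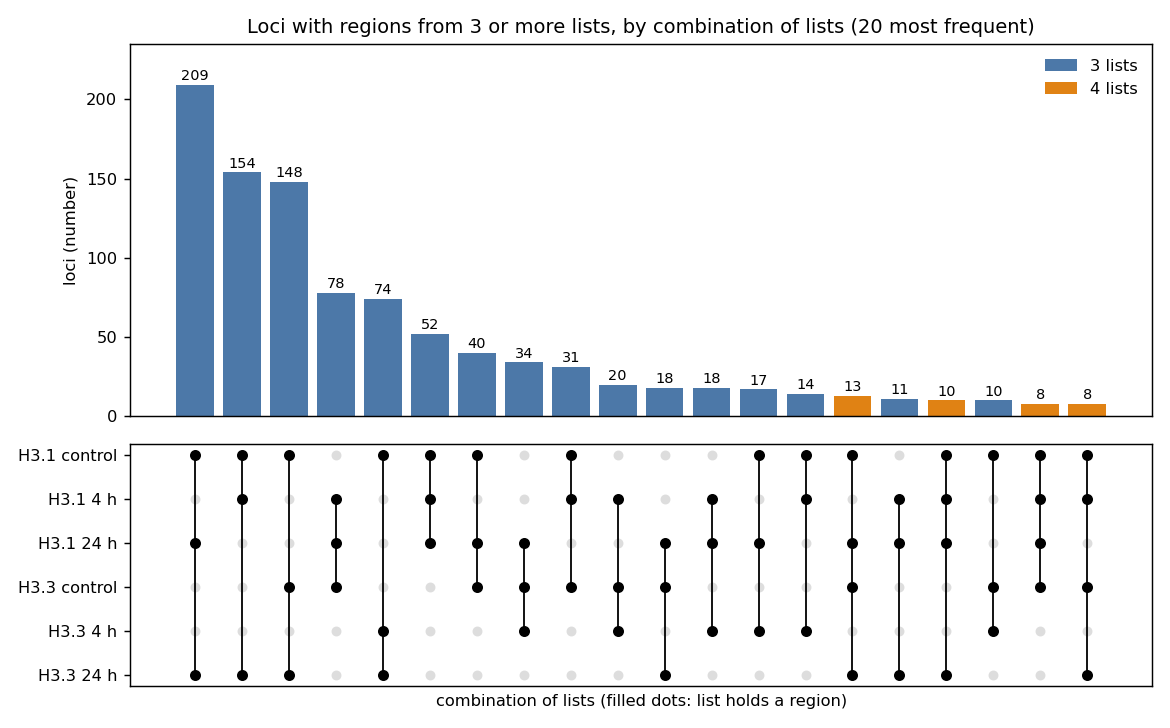
Number of loci (bars, linear axis) for each of the 20 most frequent combinations of lists, with filled dots below marking the lists in a combination. The tallest bars, 209, 154 and 148 loci, all include both H3.1 control and H3.3 24 h, and the combinations of 4 lists reach 13 loci at most.

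Both histones were called, at any time, at 967 of the 1022 loci (94.6%, 93.1 to 95.9). With 3 lists per histone, a locus of 3 or more lists lacks a histone only if it holds exactly the 3 lists of the other. A high share is therefore largely set by the rule. H3.1 lists alone made up 52 loci, which were the loci with H3.1 at all 3 times and no H3.3 region, and H3.3 lists alone made up 3. H3.1 was called at all 3 times at 77 loci and H3.3 at all 3 times at 10. The numbers of loci with both histones in the same cells were 272 for the controls, 72 for 4 h and 278 for 24 h. At 477 loci (46.7%) each of the 3 times was represented by either histone. Since the lists differ up to 22.5-fold in length, these counts give no order of the histones or times beyond the lists themselves.

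A locus is a chain of overlapping regions, and not every chain has a common core. At 538 loci (52.6%, 49.5 to 55.7) at least 1 base was covered by 3 or more lists, and that core had a median length of 165 bp with quartiles of 80 and 285 bp. At 484 loci (47.4%) no base was shared by 3 lists, so such a locus was held together by overlaps of fewer than 3 lists at a time. The median width of the loci was 1252 bp, with a range of 528 to 5199 bp, against 841 bp for loci of 2 lists and 500 bp for loci of 1 list. Loci of 4 or more lists had a median of 1529 bp. Close to the threshold, the weakest overlap that held a locus together was under 50 bp at 146 members and 1 to 9 bp at 30, with a median of 182 bp. On the other side of it, 167 loci of 2 lists had a region of a further list within 50 bp, and 2670 within 1000 bp.

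Member regions held somewhat more tags than the other regions of the same list, in ChIP and in input alike. In the H3.1 control list the median was 10.7 normalised tags in member regions and 9.11 in the others, and in the H3.1 4 h list it was 12.5 and 9.68. In the H3.3 24 h list the medians were 10.7 and 9.19. Mean input tags per region were also higher in members in every list, at 3.54 and 2.54 for H3.1 control, 4.36 and 3.46 for H3.3 4 h and 3.73 and 2.37 for H3.3 24 h. The median fold over input was no higher in members of any list. It was 5.93 in member regions and 6.21 in the others for H3.1 control, 5.93 and 7.34 for H3.3 24 h, and 4.73 in both for H3.1 4 h. For H3.1 control, 17.3% of member regions and 6.41% of the others were wider than 1 kb, and for H3.3 24 h the shares were 18.5% and 8.63%. A wide region can meet other lists more easily, and the part of width and of input tags in the choice of loci was not tested. The median within-list score percentile, the place of a region in its own list by the authors' score, was 59.5 for loci of 3 or more lists, 54.5 for loci of 2 lists and 50.5 for loci of 1 list.

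The 4 loci with 5 lists were inside COL5A1, inside SV2C, inside RNF212 and on chromosome 8 away from any protein-coding gene. COL5A1 encodes a chain of type V collagen, a regulator of collagen fibril assembly. Its locus, chr9:134832438-134834141, had every list but H3.3 4 h. Normalised tags were 16.1, 14.8 and 16.6 for H3.1 in the control, 4 h and 24 h libraries, at folds over input of 6.35 (exact 95% interval 2.24 to 24.8), 4.10 (1.65 to 12.2) and 5.02 (2.04 to 14.8). For H3.3 they were 10.7 at 24 h at a fold of 4.44 (1.5 to 17.8) and 13.4 in control cells at a fold of 4.44 (1.66 to 14.9). All these intervals overlap, and 33 bases were covered by 3 lists.

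SV2C, a synaptic vesicle glycoprotein gene, held the same 5 lists at chr5:76083823-76085007. H3.1 regions had 16.6, 14.8 and 10.7 normalised tags in the control, 4 h and 24 h libraries, and folds of 5.25 (2.02 to 17.3), 4.10 (1.65 to 12.2) and 6.46 (1.89 to 34.2). H3.3 regions had 10.7 normalised tags at 24 h at a fold of 4.44 (1.5 to 17.8) and 8.38 in control cells at 4.63 (1.31 to 24.9). This was the most compact of the 4 loci, with 1184 bp and 249 bases in at least 3 lists.

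RNF212, a gene for a meiotic crossover factor, held the third such locus at chr4:1058671-1060920, about 1.06 Mb from the chromosome end. It fell into separate groups of regions. At its upper end lay H3.1 4 h with 8.54 normalised tags, from 15 ChIP and 1 input tags, at a fold of 14.2 (2.18 to 598), and H3.1 control with 11.3, from 21 and 1, at 17.8 (2.86 to 736). At its lower end lay H3.1 24 h with 16 at a fold of 4.15 (1.76 to 11.3) and H3.3 control with 19 at 4.49 (1.96 to 12.0). An H3.3 24 h region between them, with 17.4 normalised tags at a fold of 9.59 (3.02 to 48.8), joined the groups, and no base was in 3 lists.

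The locus on chromosome 8, chr8:141544011-141548554, was 4543 bp wide, held 6 regions and was the locus of 5 lists without an H3.3 control region. Its H3.3 24 h region had 53.1 normalised tags at a fold of 5.87 (3.40 to 10.9), and its H3.3 4 h region 10.1 at 4.48 (1.48 to 18.2). H3.1 was called with 9.68 normalised tags at 4 h at a fold of 5.36 (1.55 to 28.6) and with 14.8 at 24 h at 4.48 (1.80 to 13.4). In control cells H3.1 had a wide region with 46.1 normalised tags at a fold of 4.86 (2.79 to 9.05) and a narrow one with 20 ChIP and 0 input tags, for which the interval starts at 4.18 and has no upper bound.

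**Figure D2:**
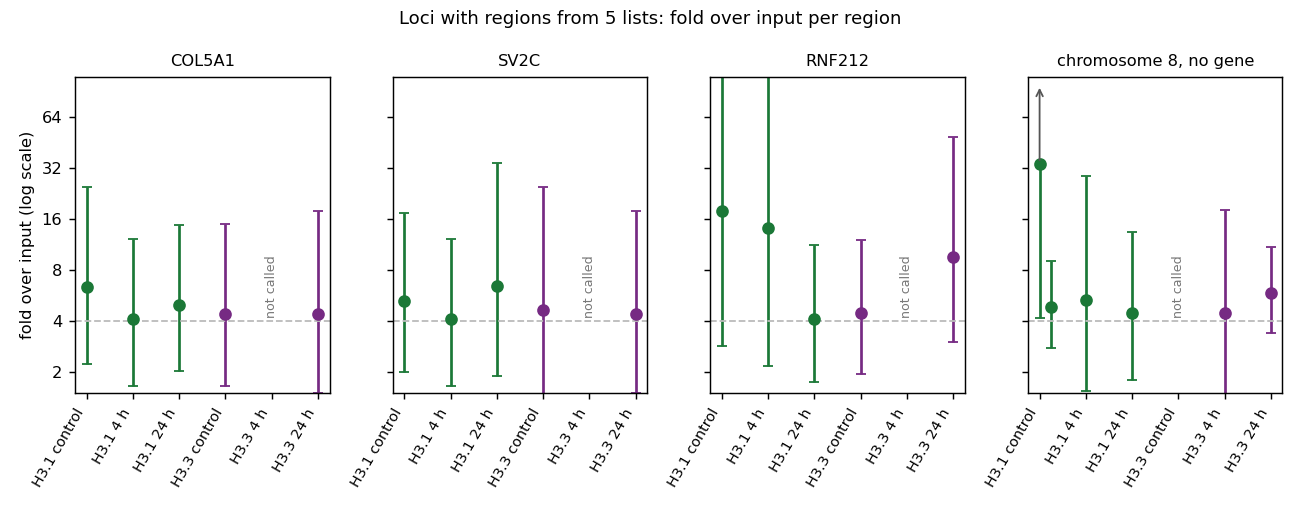
Fold over input (log axis) of each region in the 4 loci with regions from 5 lists, with exact 95% intervals from ChIP and input tags (bars; an arrow marks an interval with no upper bound, and bars cut by the frame go on beyond it) and the required fold of 4 as a dashed line. Green marks H3.1 and purple H3.3; the intervals of a locus overlap, and the lists without a region are H3.3 4 h at 3 loci and H3.3 control at the chromosome 8 locus.

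Among the loci of 4 lists named here, the highest within-list scores were at WNT3A, SCUBE1, COL6A1 and NACC2. WNT3A encodes a Wnt ligand, SCUBE1 a secreted and membrane-bound EGF-repeat protein and NACC2 a BTB-domain repressor. Inside WNT3A, at chr1:228047877-228049196, H3.1 had 18.2 normalised tags at 4 h at a fold of 7.57 (2.69 to 29.5) and 17.2 in control cells at 5.42 (2.1 to 17.8). H3.3 had 46.0 at 24 h at a fold of 4.76 (2.78 to 8.68) and 25.1 in control cells at 5.21 (2.43 to 12.8). Of this locus 283 bases were in 3 lists.

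Inside SCUBE1, at chr22:43210363-43212682, the locus held H3.1 regions of all 3 times and an H3.3 control region. The H3.3 region overlapped H3.1 regions of 4 h and 24 h. The H3.1 control region did not reach it and was joined through the 4 h region. H3.1 had 13.9 normalised tags in control cells at a fold of 4.41 (1.66 to 14.7), 16.5 at 4 h at 4.57 (1.87 to 13.5), and 2 regions at 24 h with 22 at 4.42 (2.10 to 10.4) and 18.4 at 6.67 (2.57 to 22). The H3.3 control region had 24.6 at a fold of 4.52 (2.18 to 10.5). The same lists made up the loci at COL6A1 and at NACC2. At COL6A1 no base was in 3 lists, and at NACC2 15 bases were.

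COL6A1 and COL6A2, neighbouring genes for chains of type VI collagen on chromosome 21, each held a locus of 4 lists, but of different lists. COL6A1, at chr21:45998224-46000013, had 8.04, 19.9 and 19 normalised tags for H3.1 in the control, 4 h and 24 h libraries, at folds of 4.24 (1.20 to 22.8), 4.14 (1.89 to 10.3) and 6.89 (2.67 to 22.7), and 24.0 for H3.3 in control cells at 4.97 (2.31 to 12.3). COL6A2, at chr21:46096539-46098013, had neither long list. There H3.1 had 12.5 normalised tags at 4 h at a fold of 4.16 (1.54 to 14.1) and 22.6 at 24 h at 5.11 (2.35 to 12.7). H3.3 had 9.55 at 4 h at 4.23 (1.38 to 17.3) and 7.82 in control cells at 4.32 (1.21 to 23.4). This locus runs into the COL6A2 promoter printed above, and 491 of its bases were in 3 lists.

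COL8A2, a gene for a type VIII collagen chain, held a locus of both histones at 24 h and in control cells. H3.1 had 10.7 normalised tags at 24 h and 13.4 in control cells, and H3.3 had 7.66 at 24 h and 20.1 in control cells. ADAMTS2, the gene of a procollagen-processing protease, held a 4253 bp locus at chr5:179161980-179166233, which an H3.1 control region with 97.0 normalised tags at a fold of 4.14 (2.90 to 6.07) spanned whole. Its other regions, H3.1 at 4 h and 24 h and H3.3 at 24 h, lay apart from one another under that region, with 15.9, 7.72 and 13.3 normalised tags, so no base was in 3 lists.

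A locus with H3.3 at all 3 times and H3.1 in control cells was inside SORCS2, a sorting receptor gene, with H3.3 at 19.5, 12.9 and 8.68 normalised tags. ZNF665, a zinc finger gene, and the GMDS gene of GDP-fucose synthesis held further loci of 4 lists, with folds between 4.66 and 6.46 at ZNF665 and between 4.13 and 10.6 at GMDS.

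In the leading combination of 3 lists, H3.1 control with H3.1 24 h and H3.3 24 h, the loci with the highest scores beside genes were at ZSCAN1, DDC and ZBTB7B. DDC encodes the decarboxylase that makes dopamine and serotonin, and ZBTB7B a transcription factor of T cell fate. At ZSCAN1 normalised tags were 21.4 for H3.1 at 24 h, 18.4 for H3.3 at 24 h and 13.9 for H3.1 in control cells, at folds of 5.53, 6.09 and 7.34. At DDC they were 5.94, 23 and 12.9 in the same order, at folds of 5.38, 9.52 and 5.08, and no base was in 3 lists. With H3.1 4 h in place of 24 h, the leading loci were at FLT4, the receptor of lymphatic growth factors, RYR1, the calcium release channel of muscle, and SLC19A1, a folate carrier. FLT4 had 26.2 normalised tags for H3.1 at 4 h, 12.3 for H3.3 at 24 h and 31.6 for H3.1 in control cells.

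H3.1 control, H3.3 control and H3.3 24 h met with the highest scores at ZNF469, WNT9B and BOLA3. ZNF469 had 10.2 normalised tags for H3.3 at 24 h, and 12.8 for H3.3 and 24.1 for H3.1 in control cells, with 341 bases in all 3 lists. The WNT9B locus also lay beside LRRC37A2 and had its largest region in H3.3 at 24 h, with 26.1 normalised tags at a fold of 10.8 (3.97 to 41.1). Without the long lists, H3.1 4 h, H3.1 24 h and H3.3 control met at RBBP8NL, MOB2 and the neighbours EGFL7 and AGPAT2. RBBP8NL had the highest median score percentile of all named loci of 3 lists, 98.4, with 34.7 normalised tags for H3.1 at 4 h, 13.1 for H3.1 at 24 h and 42.4 for H3.3 in control cells, at folds of 4.44 (2.41 to 8.81), 7.89 (2.37 to 41.2) and 6.39 (3.38 to 13.3). H3.1 was called at all 3 times, with no H3.3, at CACNA1H, a T-type calcium channel gene, where the regions held 15.0, 57.5 and 14.3 normalised tags in the control, 4 h and 24 h libraries and the 4 h region was the widest.

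The 5 widest loci were at ACSL6, at NUDCD3, at the chromosome 8 locus above, at ADAMTS2 and at chr11:45390895-45394836, which has no protein-coding gene within 2 kb. At ACSL6, a gene for a long-chain acyl-CoA synthetase, the width of 5199 bp was that of a region of H3.3 at 24 h with 110.8 normalised tags at a fold of 4.96 (3.49 to 7.24). H3.1 regions of 4 h and of control cells, with 10.2 and 15.5 normalised tags, lay inside it. In each of the 5, a wide region of a long list spanned most of the locus.

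By placement, 189 of the 1022 loci (18.5%, 16.2 to 21.0) came within 2 kb of an end of a protein-coding gene, against 13.4% of loci of 2 lists and 11.9% of loci of 1 list. Most loci of 2 lists are of the long pair. Among the 4474 of other pairs the share was 18.4% (17.3 to 19.6), close to that of all members. The make-up differs, because 634 members hold both long lists. Members with both were at gene ends in 16.7% of cases (13.9 to 19.9), against 11.9% (11.4 to 12.4) for the long pair alone. Without a long list the shares were 27.1% (20.3 to 34.8) in members and 23.2% (21.2 to 25.2) in loci of 2 lists. Gene bodies were met by 658 loci (64.4%, 61.4 to 67.3), against 58.4% of loci of 2 lists, 63.4% of those of other pairs and 55.6% of loci of 1 list. Wider loci meet more annotation, and by the midpoint of the locus the shares at gene ends were 15.6%, 11.3% and 10.7%. The gene table has no strand, so starts and ends of genes were counted alike. Of the 328 loci with no protein-coding gene within 2 kb, 64 lay in a gene for a long non-coding RNA and 264 in neither.

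The outermost 2 Mb of chromosomes held 184 of the 1022 loci (18.0%, 15.7 to 20.5), against 9.03% of loci of 2 lists (8.62 to 9.45) and 8.05% of loci of 1 list (7.89 to 8.20). Among loci of 2 lists other than the long pair the share was 18.8% (17.6 to 19.9). The members still include loci with both long lists, so that comparison mixes unlike loci. With both long lists the share was 10.7% (8.43 to 13.4) in members and 6.01% (5.63 to 6.41) in loci of 2 lists. With neither it was 36.1% (28.6 to 44.2) and 27.6% (25.5 to 29.8). The next 2 Mb held 14.4% of all members, against 9.23% of loci of 2 lists and 7.53% of loci of 1 list. The median distance to the nearer chromosome end was 11.6 Mb for these loci, 20.9 Mb for loci of 2 lists, 10.96 Mb for those of pairs other than the long pair, and 22.3 Mb for loci of 1 list. Between 4 and 6 Mb the shares were 5.77%, 5.70% and 5.28%.

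**Figure D3:**
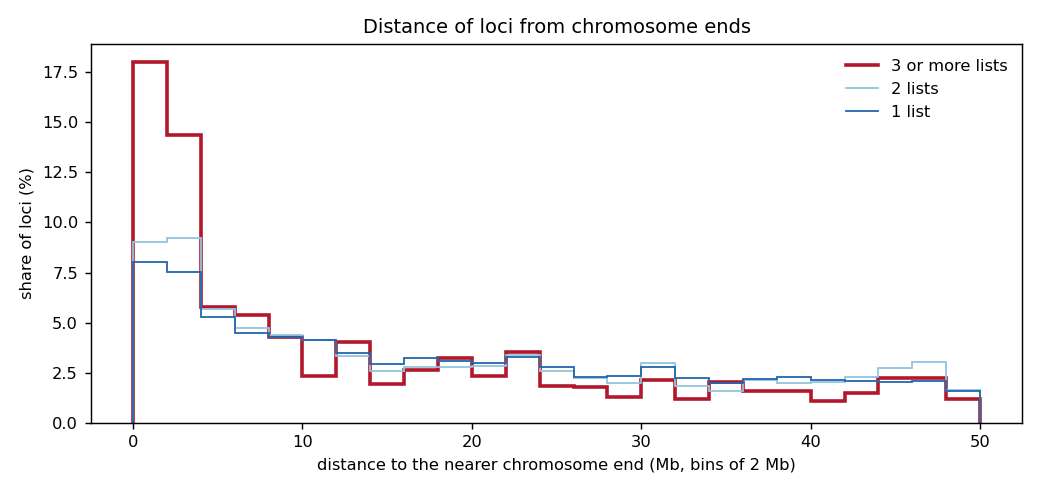
Share of loci (%) by distance to the nearer chromosome end in 2 Mb bins (Mb), for loci of 3 or more lists, of 2 lists and of 1 list. The first bin holds 18.0% of the loci of 3 or more lists, against 9.03% and 8.05%, and the third bin 5.77%, against 5.70% and 5.28%.

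The placement moved with the lists that made up a locus. Loci from the shorter lists alone lay in the outermost 2 Mb in 36.1% of cases (28.6 to 44.2), loci with 1 long list in 25.8% (20.3 to 31.9) and loci with both in 10.7% (8.43 to 13.4). At gene ends the shares were 27.1% (20.3 to 34.8), 17.6% and 16.7%. Outside the members, loci of 2 lists differed in the same direction. Loci of 2 shorter lists lay near chromosome ends in 27.6% of cases and at gene ends in 23.2%, while loci of just the long pair did so in 6.01% and 11.9%. Loci of 1 shorter list were in the outermost 2 Mb in 13.2% to 17.3% of cases, those of H3.1 control alone in 9.50% and those of H3.3 24 h alone in 4.32%. With H3.1 control left out, the share of the remaining loci of 3 or more lists in the outermost 2 Mb was 31.6%, and with H3.3 24 h left out 30%; among regions with a fold of at least 6 it was 9.38% of 32 loci.

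**Figure D4:**
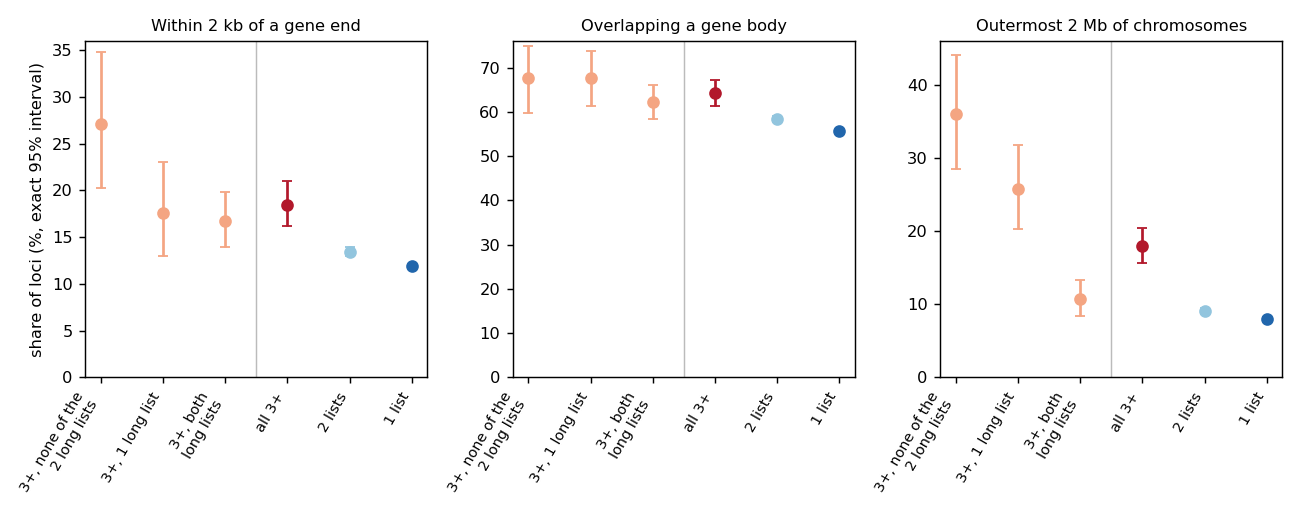
Share of loci (%, points, with exact 95% intervals as bars) within 2 kb of a gene end, overlapping a gene body and in the outermost 2 Mb of chromosomes. Loci of 3 or more lists are split by how many of the long lists they hold, left of the line, and set beside loci of 2 lists and of 1 list, right of it; the outermost 2 Mb hold 36.1% of loci without a long list and 10.7% of those with both.

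Chromosomes 22, 19, 17 and 20 had the most of these loci per Mb, 1.14, 1.08, 0.769 and 0.731, and chromosomes X, 6 and 13 the fewest, 0.128, 0.129 and 0.131. As a share of the loci of any kind on the chromosome, against 0.73% in all, they were 1.23% (0.932 to 1.58) on chromosome 22, 0.961% on 19, 0.8496% on 17 and 0.933% on 20. The share was 0.977% on chromosome 4, 0.590% (0.361 to 0.910) on X and 0.396% (0.248 to 0.598) on 6. Chromosome 19 is also the densest in protein-coding genes, at 24.8 per Mb, and chromosome 13 the sparsest, at 2.96. In number chromosome 1 led with 103, which is 0.620% of its loci. The outermost 2 Mb held 22 loci on chromosome 16, 19 on chromosome 10 and 16 on chromosome 20, against 2 on chromosome 1. Of these loci, 388 (38.0%) had another of them within 100 kb and 93 within 10 kb, and the median distance to the nearest was 185 kb. The spacing of loci of fewer lists was not measured, so these values have no comparison.

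Together 651 of 19974 protein-coding genes held such a locus in their body or within 2 kb, 3.26% of all genes and 4.42% of the 14713 genes with any region. They were long genes, with a median length of 49.3 kb, against 30.7 kb for genes with any region and 24.2 kb for all. More than 1 locus was held by 78 genes and at least 3 by 15. PRDM16, the gene of a transcription factor known from brown fat and blood stem cells, led with 8 loci in 369 kb. CDH4, the R-cadherin gene, had 7 in 688 kb. IQSEC1, an exchange factor gene for ARF GTPases, and PTPRN2, a phosphatase-like receptor gene of secretory granules, had 6 each, and RBFOX3, a neuronal splicing factor gene, had 5. LOC124900586, SORCS2 and ZNF469 had 4 each. LMF1 had 3, but it overlaps LOC124900586 and shares with it the loci at chr16:875536-876940 and chr16:891236-892340. Other genes with 3 included ADGRA1, ATP2B2, MEGF6, TAFA5 and TRAPPC9. All of these genes held regions of fewer lists too, between 16 and 219 loci of any kind. PRDM16 met 151 loci, so 5.30% of its loci were of 3 or more lists, and PTPRN2 met 219, of which 2.74% were. Of all loci 0.73% were, but these genes were picked for holding at least 3 such loci, which by itself raises their shares. The highest share of these 15 genes was at ADGRA1, an adhesion receptor gene near the end of chromosome 10, with 3 of 16.

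Which lists made up the loci differed from gene to gene. At PRDM16 the H3.1 lists of control cells, 4 h and 24 h took part in 7, 6 and 3 of the 8 loci, and the H3.3 lists in 5, 2 and 2. Its locus of highest score, chr1:3287677-3288656, had 18.2 normalised tags for H3.1 at 4 h at a fold of 4.33 (1.88 to 11.6), 16.6 for H3.1 in control cells at 6.57 (2.32 to 25.6) and 13.4 for H3.3 in control cells at 4.44 (1.66 to 14.9). The PRDM16 locus of 4 lists, chr1:3238156-3239598, had 18.2 for H3.1 at 4 h and 6.43 in control cells, and 6.64 for H3.3 at 24 h and 8.94 in control cells. At IQSEC1 H3.3 took part in 2, 4 and 5 of the 6 loci at the 3 times, and H3.1 in 5, 2 and 1. At RBFOX3 all 5 loci held H3.3 control and none held H3.3 4 h. At MEGF6 each of the 3 loci was made of H3.1 control, H3.1 24 h and H3.3 4 h, a combination that only 17 loci of exactly 3 lists had. The MEGF6 locus at chr1:3524420-3525582 had 11.9 and 15.0 normalised tags for H3.1 at 24 h and in control cells and 23.6 for H3.3 at 4 h, at folds of 4.30 (1.57 to 14.7), 4.74 (1.81 to 15.7) and 4.18 (2.07 to 9.35).

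Gene families differed in how many members held such a locus, which is set here beside the 3.26% of all genes. Collagen genes were at 7 of 44 (15.9%, 6.64 to 30.1), namely COL5A1, COL6A1, COL8A2, COL6A2, COL20A1, COL18A1 and COL23A1. Their median length of 145 kb is far above that of all genes, and the part of length was not tested. Receptor tyrosine kinase and Src family genes were at 8 of 61 (13.1%, 5.84 to 24.2), with a median length of 82.8 kb. They included FLT4, PDGFRB, BLK and the Eph receptor genes EPHB2, EPHB3, EPHA8 and EPHA2. At EPHB2 H3.1 was called at all 3 times, with 9.11, 11.4 and 21.4 normalised tags in the control, 4 h and 24 h libraries. Inside PDGFRB, a platelet-derived growth factor receptor gene, H3.3 at 24 h had 37.8 normalised tags at a fold of 5.69 (3 to 11.9), and H3.1 14.8 at 4 h and 9.65 in control cells.

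Homeobox and PAX genes outside the HOX clusters held a locus at 11 of 107 (10.3%, 5.25 to 17.7). The median length over the family is 7.85 kb, and that of the members held was not tested. They were EN2, CUX2, NKX1-1, PAX2, EN1, CUX1, LHX5, IRX2, VAX1, PAX7 and EMX1, most of them regulators of the embryonic nervous system and other organs. At PAX2, a kidney and eye regulator, H3.1 had 12.0 normalised tags at 4 h at a fold of 4.97 (1.68 to 19.9) and 16.6 at 24 h at 5.02 (2.04 to 14.8), and H3.3 had 11.7 in control cells at 6.48 (1.93 to 33.9). EN2, a midbrain regulator, had 10.8, 10.7 and 11.3 normalised tags for H3.1 at 4 h, H3.3 at 24 h and H3.1 in control cells, and no base was in all of them. Of 39 HOX genes, HOXA13 alone held a locus, at chr7:27200243-27201926, with 40.4 normalised tags for H3.3 at 24 h at a fold of 11.1 (4.90 to 31.3), 12.8 for H3.3 in control cells at 4.26 (1.58 to 14.3) and 9.65 for H3.1 in control cells at 7.63 (1.83 to 67.8). It lies beside the gene and touches the promoter printed above, and within gene bodies alone no HOX gene had a locus.

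The T-box genes TBX5, a heart and forelimb regulator, and TBX1 were the members held among 35 SOX and T-box genes. TBX5 had 2 loci. In one, H3.1 was called at all 3 times, and the 24 h region alone reached the promoter window printed above. H3.1 had 6.43, 14.8 and 17.2 normalised tags in the control, 4 h and 24 h libraries, at folds of 5.08 (1.13 to 46.8), 4.92 (1.86 to 16.4) and 4.46 (1.91 to 12.1). Of 52 forkhead genes FOXF1 held a locus, and within gene bodies alone none did. Potassium channel KCN genes were at 8 of 95 (8.42%, 3.71 to 15.9), among them KCNN1, KCNC1, KCNAB2, KCNJ5, KCNQ1, KCNS2 and KCNH3. KCNN1 had 432 of its 727 bp in 3 lists, with 14.6 normalised tags for H3.3 at 4 h, 10.2 for H3.3 at 24 h and 10.7 for H3.1 in control cells.

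Wnt ligand and Frizzled genes were at 3 of 31, the ligand genes WNT3A, WNT9B and WNT4. TGF-beta ligand and receptor genes were at 3 of 45, the ligand genes NODAL, BMP8B and BMP8A. At NODAL, an embryonic axis signal, H3.3 had 12.9 normalised tags at 4 h at a fold of 4.58 (1.70 to 15.4) and 8.68 at 24 h at 7.19 (1.71 to 64.2), and H3.1 had 11.3 in control cells at 8.90 (2.17 to 78.3). Among 15 H3 chaperone genes, CABIN1, a subunit gene of the HIRA complex, held a locus inside its body. H3.3 at 24 h had 22 normalised tags there, from 43 ChIP and 2 input tags, at a fold of 18.2 (4.74 to 155). In control cells H3.3 had 7.82 at a fold of 4.32 (1.21 to 23.4) and H3.1 had 9.11 at 4.80 (1.39 to 25.6). These intervals overlap. PDGFRB was the member held among 36 mesenchymal genes of the epithelial-mesenchymal transition.

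Zinc finger ZNF genes were at 7 of 509 (1.38%, 0.555 to 2.81), below the share of all genes, and included ZNF665, ZNF469, ZNF598 and ZNF48. Keratin genes were at 2 of 55, and at none within gene bodies alone, through a locus near the ends of both KRT79 and KRT78, where all 500 bases of the H3.3 4 h region were in 3 lists. No member held a locus among 36 epithelial identity genes, 40 antioxidant and redox genes, 23 DUSP phosphatase genes, 14 AP-1 and EGR genes, 53 clustered protocadherin genes, 80 cytosolic ribosomal protein genes, 69 replication-dependent histone genes and 390 olfactory receptor genes. For these a share of up to 9.74%, 8.81%, 14.8%, 23.2%, 6.72%, 4.51%, 5.21% and 0.941%, in that order, lies within the exact 95% interval. The intervals count genes as independent. Genes in clusters, such as the clustered protocadherins, can share a locus, so for them these limits may be too low. Many of them did hold regions of fewer lists: 33 of the 36 epithelial identity genes and 30 of the 40 antioxidant genes had at least 1 region, as had 62 of the 390 olfactory receptor genes.

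**Figure D5:**
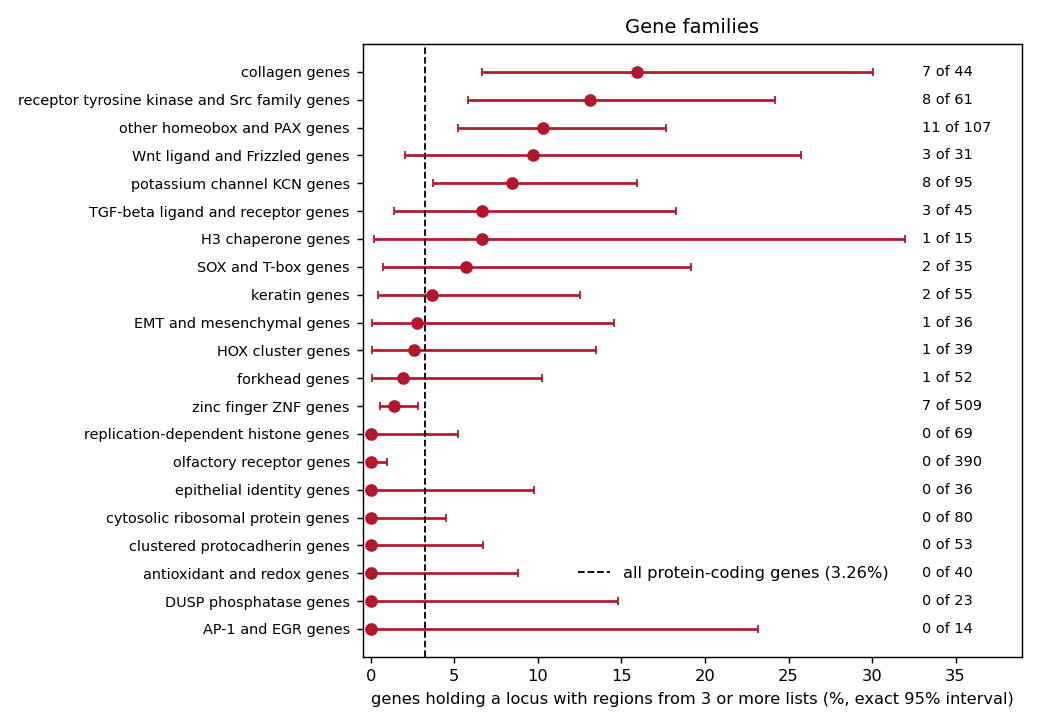
Share of genes in each family (%, points, with exact 95% intervals as bars) that held a locus of 3 or more lists, with the number held and the family size at the right and the 3.26% of all protein-coding genes as a dashed line. Collagen genes are at 15.9% and 8 families have no member held.

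Promoters were a small part of the placement. RefSeq promoter windows of the same length were at hand for 15812 of the protein-coding genes, 22132 windows in all. The 1022 loci of 3 or more lists met 38 of them, of 32 genes. The 18884 loci of 2 lists met 376 windows and the 120091 loci of 1 list met 1983, so per locus the members, which are also wider, met more. The median number of CG dinucleotides was 18.5 in these windows, 9 in windows met by loci of 2 lists, 14 in those met by loci of 1 list and 21 in all windows. The ratio of CG dinucleotides to the number that base composition gives had medians of 0.662, 0.391, 0.587 and 0.738 in that order. These medians were not split by the long lists, and the long pair makes up 76.3% of the loci of 2 lists. The comparison therefore mixes loci of unlike make-up, and the part of the long lists in it was not tested. The windows shown above hold 21 to 44 CG, but they are the first of each gene in genome order. A further window of TBX5, chr12:114408393-114408692, has 15 CG, and one of WDR86, chr7:151410663-151410962, has 19. Both lie wholly in the locus and are met by regions of more than 1 list. The letters TATAAA, on either strand, were in 7 of the 38 windows (18.4%) and in 9.46% of all, a count too small to read further. CG-poor windows among the 38 include those of CD209, a lectin gene of dendritic cells, and PPP1R14D, with 1 CG each, named here after their values were seen.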

How the data were processed

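ChIP-seq of H3.1 and H3.3 was analysed from 6 deposited region lists, 1 per histone and time; the 6 input samples enter only through the authors' fold. The submitters' processing notes name cutadapt (version 3.7), Bowtie2 (2.4.1), HOMER (4.11.1) and the build hg38. Per the file headers, each library was called alone against its input with 500 bp peaks at least 1000 bp apart, at most 1 tag per bp, a required fold of 4 over input and a Poisson p-value of 1e-04. The deposited signal of a region is its tags per 10000000 library tags. The deposited count of tags was scaled by the authors to the input in 5 lists, while for H3.1 24 h it was the input that was scaled. The deposited score is the caller's and is not adjusted for depth. The deposited fold is the ratio of ChIP to input tags at equal depth, with the authors' p-value. No region was called on pooled samples, and a region missing from a list was only not called.

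Regions were merged with Python 3.11.15, numpy 2.4.6, pandas 2.3.3 and scipy 1.17.1, and figures drawn with matplotlib 3.10.9. Tags were recovered from the scaled columns (whole within 0.1 in every region), and fold intervals are exact 95% conditional binomial intervals. They ignore the selection by calling. Shares have exact 95% Clopper-Pearson intervals. Both cover counting error only, and no test between conditions was made. The merging and the intervals were tested on simulated data. Genes came from a RefSeq table of GRCh38.p14, with chromosome ends taken from the largest coordinate seen. Named loci are the loci of 5 lists, the 3 highest-scoring gene loci of the 6 commonest combinations of 3 lists and the 4 commonest of 4 lists, all loci of the genes with the most loci, up to 4 members of each of 21 families, and the 5 widest loci. Where all members held in a family are listed, those beyond 4 go past this rule. The members, families and rules were chosen with earlier results of these data known. Regions on chromosome Y and unplaced contigs, 158 in all, were left out; they gave 0 loci of 3 lists. Results for some named genes are not reported here.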

Additional observations from a re-analysis of the deposited data

Results flagged for a closer look

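The number of these loci with a region of a given histone differed between 24 h and control cells in opposite directions for H3.1 and H3.3. H3.1 was called at 536 of them at 24 h and at 814 in control cells, a difference of -278 loci. H3.3 was called at 687 at 24 h and at 440 in control cells, a difference of 247 loci. There is 1 library per condition, so the difference between the histones was not tested. The lengths of the lists move the same way, with 13611 regions for H3.1 at 24 h and 44966 in control cells, and 81370 for H3.3 at 24 h and 9839 in control cells. As a share of each list's own loci the order is the reverse, with 3.94% for H3.1 at 24 h and 1.82% in control cells, and 0.845% for H3.3 at 24 h and 4.47% in control cells. At 4 h both numbers were below those of control cells, at 436 for H3.1 and 230 for H3.3. The 4 h lists were also shorter, with 7922 and 3614 regions. As a share of each list's own loci the 4 h values were above those of control cells, at 5.51% for H3.1 and 6.37% for H3.3.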

How the results depend on the processing

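The number of loci (1022) and of genes (651) depends on how regions are joined. Joined at 250 bp or more, 405 loci and 266 genes were left, 22.5% of the loci from the shorter lists alone. Joined over gaps of up to 1000 bp there were 4123 loci and 2222 genes, with 23.5% at gene ends, 67.7% in gene bodies and 6.91% from the shorter lists. With a base in 3 lists there were 538 loci and 346 genes, with 15.8% at gene ends and 20.4% from the shorter lists. At a fold of 6 or more 32 loci and 21 genes were left, with 12.5% at gene ends, 56.2% in gene bodies, 9.38% in the outermost 2 Mb and 0% from the shorter lists. With 3614 regions in every list there were 63 loci and 57 genes, with 25.4% at gene ends, 74.6% in gene bodies, 47.6% in the outermost 2 Mb and 76.2% from the shorter lists. Asking for 2 lists gave 19906 loci and for 4 lists 73. The gene end share was 10.2% with a window of 500 bp, 30.1% with 5 kb and 15.6% by midpoint, the last an alternative chosen after the data were seen. Apart from fewer regions or samples by construction, the cause of these moves was not tested.

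Leaving out 1 list at a time gave 253 to 818 loci: 253 without H3.1 control, 380 without H3.3 24 h, 528 without H3.1 24 h, 617 without H3.3 control, 622 without H3.1 4 h and 818 without H3.3 4 h. Genes then numbered 178 to 540, with 16.9% to 22.5% at gene ends, 60.9% to 67.6% in gene bodies, 13.8% to 31.6% in the outermost 2 Mb and 3.73% to 66.8% from the shorter lists. At a fold of 6 or more, 13 of the 21 families had no member left and the other 8 had none to begin with. Counting gene bodies alone changed the HOX, forkhead and keratin counts to 0, and left the other 18 families within 1.5 times. No paired analysis was possible because each group has 1 sample. With median input counts of 2 to 5 tags a region, most folds cannot be told from one another.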
